A study of Homo sapiens with 8 samples.

Results

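FYB1, SKAP2, LCP2, SYK, BTK, PLCG2, TYROBP, FCER1G and LYN carry signals from the immune receptors of myeloid cells. These 9 genes were followed in MOLM-13 cells, a human acute myeloid leukemia line, after depletion of the splicing factor PTBP1. They were picked by name, as every transcript that GENCODE version 44 assigns to a listed gene, and 9 of the 16474 genes with a count and 52 of the 55736 annotated transcripts with a count belonged to them. The names were chosen with the differences between shPTBP1 and shSCR already known, the isoform shares and cassette exons of FYB1 and SYK first. Differences of these genes between the groups are therefore descriptions without a test.

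The shPTBP1 group held 4 biological replicates of MOLM-13 with a doxycycline-inducible shRNA against PTBP1, and the shSCR group held 4 with a scrambled shRNA that GEO's labels call shControl. Both groups carried the same kind of lentiviral vector, with mCherry always on and a truncated NGFR (nerve growth factor receptor) induced with the shRNA, and both received doxycycline for 9 days. Each group rests on 1 shRNA, so the effect of PTBP1 loss and of the hairpin itself cannot be told apart. cDNA was read by nanopore sequencing, and the deposited values were whole-number counts per annotated transcript, between 1528449 and 1613342 per library. PTBP1 itself fell from 47.5 ± 7.81 to 9.88 ± 3.55 normalized CPM (counts per 1000000; SD, n = 4 each), a log2 fold change of -2.26 with an SE of 0.22 and an adjusted p of 7.18e-05 by edgeR's quasi-likelihood test. Of 10 myeloid marker genes, 8 had over 10 counts in all, and their summed level was 3939 to 4181 CPM in shPTBP1 and 3239 to 3635 CPM in shSCR, while all 5 T cell markers were at 0. SPI1 and CD14, also on the myeloid list, each had 1 count in shPTBP1 replicate 1 and 0 in the other libraries. Whether SPI1 RNA was as scarce as these counts was not checked by another measure. Summed markers of other lineages lay between 2.64 and 6.0 CPM for B cells, between 10.8 and 28.0 CPM for NK cells and at most 0.667 CPM for erythroid cells over both groups. Of the 5 NK cell markers only NKG7 had over 10 counts in all, with means of 13.1 CPM in shPTBP1 and 17.4 CPM in shSCR. Most of the myeloid sum is CTSG, at 3387 CPM in shPTBP1 and 2719 CPM in shSCR, and the other myeloid markers summed to 677 to 785 CPM and 614 to 667 CPM. The markers did not move together: of the 7 tested, CTSG was called higher and CSF1R lower (7.28 against 14.4 CPM) by edgeR, with adjusted p of 0.00486 and 0.0375, and the part of these differences in the results below was not tested. Fewer cells of a kind and less RNA per cell cannot be told apart in such bulk RNA.

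Many activating receptors of myeloid cells have no signalling tail of their own and borrow one from FCER1G (the Fc receptor gamma chain) or TYROBP (DAP12), whose tails hold an immunoreceptor tyrosine-based activation motif (ITAM). Src-family kinases such as LYN phosphorylate the ITAM, SYK docks on it, and with the scaffold LCP2 (SLP-76) and the Tec kinase BTK the signal reaches the phospholipase PLCG2, which releases calcium and activates protein kinase C. FYB1 (ADAP) and its partner SKAP2 connect the same scaffold to integrins and the actin cytoskeleton. PTBP1 binds pyrimidine-rich RNA and is best known for keeping alternative exons out of mature transcripts.

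The sequences below are those of the exons on which the isoforms of FYB1, SYK and PLCG2 differ. They were read from the GRCh38 genome on the strand of each gene. Capitals mark the exon in FYB1 and SYK, which is shown with 100 bases of the intron before it and 20 of the intron after it. For PLCG2 only the 100 intron bases before the exon are shown, and there capitals mark each TCTT and CTCT, a pair of short pyrimidine motifs.
FYB1, chr5:39125978-39126235, minus strand: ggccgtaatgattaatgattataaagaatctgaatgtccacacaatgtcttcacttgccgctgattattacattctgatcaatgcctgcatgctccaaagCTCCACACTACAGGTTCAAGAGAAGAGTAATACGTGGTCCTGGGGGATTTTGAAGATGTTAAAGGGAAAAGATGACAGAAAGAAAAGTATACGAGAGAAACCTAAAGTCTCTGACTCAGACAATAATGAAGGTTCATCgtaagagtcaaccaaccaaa
SYK, chr9:90867031-90867219, plus strand: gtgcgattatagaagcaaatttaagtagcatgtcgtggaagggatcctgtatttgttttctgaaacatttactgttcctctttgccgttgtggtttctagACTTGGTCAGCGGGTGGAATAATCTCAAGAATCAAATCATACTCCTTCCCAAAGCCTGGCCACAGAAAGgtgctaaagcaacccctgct
PLCG2, chr16:81851950-81852049, plus strand: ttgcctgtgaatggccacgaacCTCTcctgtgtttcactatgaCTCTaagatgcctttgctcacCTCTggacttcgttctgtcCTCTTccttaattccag

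The FYB1 exon has 138 bases (chr5:39125998-39126135) and codes for 46 amino acids without changing the reading frame. The SYK exon has 69 bases (chr9:90867131-90867199) and codes for 23 amino acids in the stretch between the SH2 domains and the kinase domain, again in frame. The PLCG2 exon has 77 bases (chr16:81852050-81852126). In PLCG2-223 and PLCG2-225, the models that hold it, it lies before the coding sequence, whose start codon is 2326 genomic bases further on. In the letters above, the last 100 bases of the intron before the exon held 53.0% pyrimidines in FYB1, 54.0% in SYK and 67.0% in PLCG2. Over the 9803 cassette exons measured in all genes the median was 56.0%, and 7.52% of them had a share at least as high as that of PLCG2. CTCT occurred 4 times before the PLCG2 exon, a number reached by 2.41% of all such exons, and the last of these overlaps the only TCTT. FYB1 held 1 TCTT and no CTCT in this window, and SYK held 1 of each, on the strand of the gene. Over all exons, 64.3% held a TCTT and 46.2% a CTCT. These matches describe letters only, and binding of PTBP1 to them was not tested.

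Levels of the 9 genes spanned a wide range. Per kilobase of transcript, FCER1G was the highest in shSCR at 285 ± 48.7 CPM per kb (SD, n = 4), and TYROBP came next at 200.02 ± 23.6 CPM per kb. FYB1 followed at 39.7 ± 8.68 CPM per kb, BTK at 27.2 ± 4.61 CPM per kb and SKAP2 at 24.0 ± 4.35 CPM per kb. LCP2 was lower at 4.73 ± 0.274 CPM per kb, PLCG2 reached 2.97 ± 1.03 CPM per kb, SYK 2.28 ± 1.39 CPM per kb and LYN 0.111 CPM per kb. The adaptors that hold the ITAM thus stood highest on this scale and LYN lowest. Of the neighbours in this order, the shSCR libraries overlapped between FCER1G and TYROBP, FYB1 and BTK, BTK and SKAP2, and PLCG2 and SYK, and they did not overlap between TYROBP and FYB1, SKAP2 and LCP2, LCP2 and PLCG2, or SYK and LYN. The level of FYB1 per kb is raised by FYB1-210, a transcript model of 616 bases that took 29.6% of the counts of FYB1 in shSCR. With FYB1-210 left out, a setting chosen after seeing the data, FYB1 was at 14.6 ± 3.49 CPM per kb in shSCR (9.57 to 17.7), below all shSCR libraries of BTK and SKAP2. Division by length also raises genes with short transcripts, such as FCER1G and TYROBP. Without this division, shSCR means were 168 CPM for FCER1G, 115 for TYROBP, 91.3 for SKAP2, 70.1 for BTK and 52.0 for FYB1. FCER1G and TYROBP still had the highest means and LYN the lowest, while FYB1, BTK and SKAP2 stood in reversed order. There the shSCR libraries overlapped between TYROBP and SKAP2, between SKAP2 and BTK, and between BTK and FYB1. Which scale suits these reads was not tested.

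No gene of the 8 with enough counts was called changed between shPTBP1 and shSCR by edgeR at an adjusted p under 0.05, where 5.54% of all 7597 genes tested were called, 3.19% as lower and 2.36% as higher. The count was also 0 at an unadjusted p under 0.05, which 19.2% of all genes tested reached, and 0 among the 5 of these genes for which DESeq2 gave an adjusted p (it gave none for LCP2, SYK and PLCG2). The median log2 fold change was -0.14 for the 8 genes and -0.00 for all genes tested. In each of the 9 genes the libraries of the groups overlapped. Over all genes tested, 12.7% had groups that did not overlap.

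**Figure D1:**
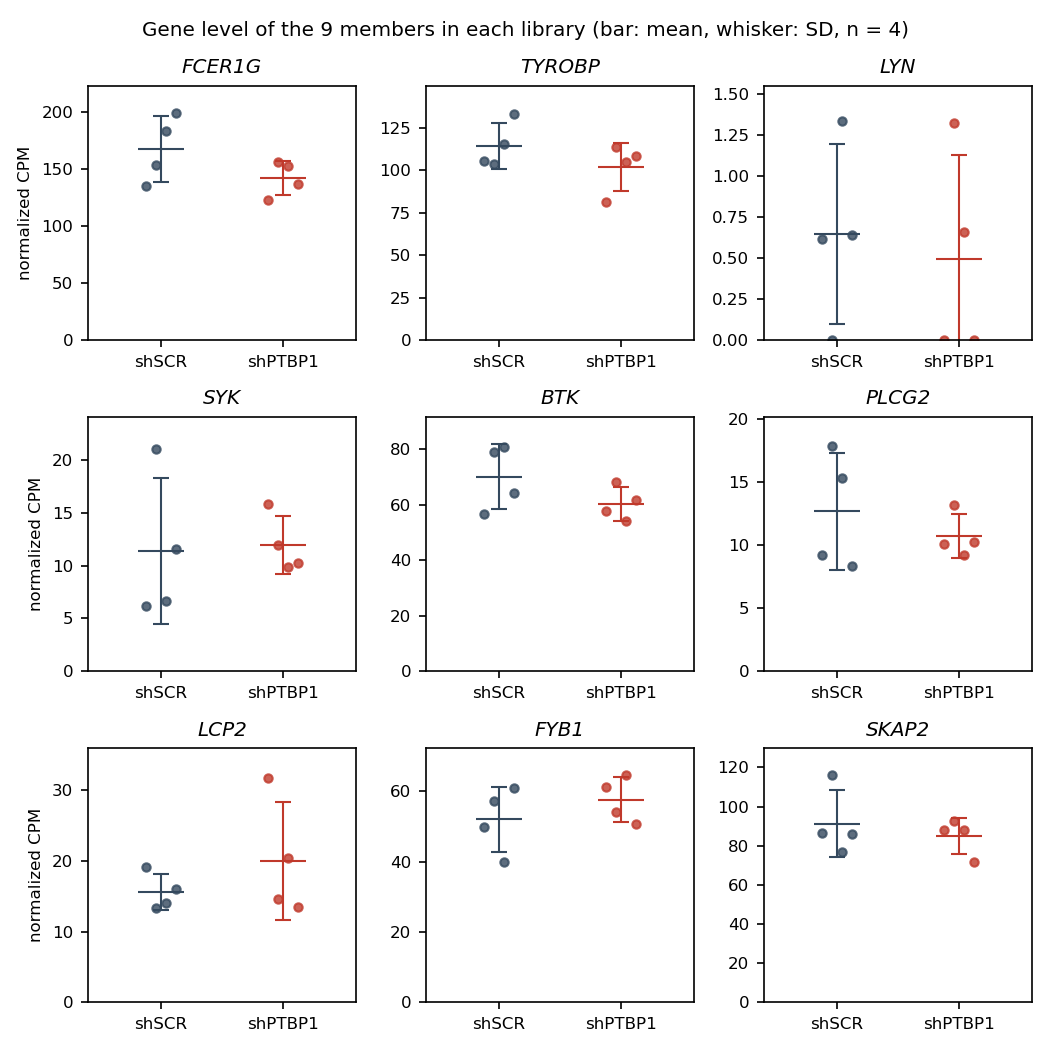
Normalized CPM (vertical axis, each panel from 0 with its own scale) of the 9 genes in the 4 shSCR and the 4 shPTBP1 libraries. Points are libraries, the long bar is the mean and the whisker the SD, which is drawn down to 0 at most; points of the groups overlap in every panel, for example 40.0 to 61.0 CPM in shSCR and 50.6 to 64.5 CPM in shPTBP1 for FYB1.

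Among the ITAM adaptors, FCER1G (chr1:161215234-161220699, plus strand) lay between 135 and 199 CPM in shSCR and between 123 and 156 CPM in shPTBP1, with a log2 fold change of -0.24 and an SE of 0.12. TYROBP (chr19:35904401-35908295, minus strand) lay between 104 and 133 CPM in shSCR and between 81.6 and 114 CPM in shPTBP1, with a log2 fold change of -0.17 and an SE of 0.11. Both had a lower mean in shPTBP1 by about as much as the replicates differed among themselves. Their log2 fold changes stayed below 0 when any library was left out, at -0.33 to -0.15 for FCER1G and -0.22 to -0.07 for TYROBP.

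Of the kinases, SYK (chr9:90801787-90898549, plus strand) had few counts. SYK replicates 1 to 4 had 6.14, 21.0, 6.67 and 11.6 CPM in shSCR. In shPTBP1 they had 15.8, 11.9, 9.87 and 10.2 CPM. All shPTBP1 libraries lay inside the range of shSCR, which was set by its replicate 2, and the log2 fold change of 0.08 with an SE of 0.36 became 0.56 without that library and ran down to -0.13 when others were left out. BTK (chrX:101349338-101390796, minus strand) lay between 56.5 and 80.7 CPM in shSCR and between 54.0 and 68.0 CPM in shPTBP1, a log2 fold change of -0.22 with an SE of 0.13. LYN (chr8:55879835-56014169, plus strand) was almost unread, with 1, 0, 2 and 1 counts in the shSCR libraries and 0, 2, 1 and 0 counts in the shPTBP1 libraries. It was left out of the test and allows no statement on a change. Whether LYN RNA was as scarce as these counts was not checked by another measure. ORAI1, a calcium channel gene of the pathway list, had 0 counts in shPTBP1 replicate 1 and in shSCR replicate 2. It had 63 to 96 counts in each other library, unlike LYN, which was low in all. The cause was not tested for either gene. Among other Src-family kinases, the means in shSCR were 18.3 CPM for FYN and 7.54 CPM for FGR.

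PLCG2 (chr16:81779279-81962685, plus strand) had 9.22, 17.8, 15.3 and 8.34 CPM in shSCR replicates 1 to 4 and 10.1, 13.2, 9.22 and 10.2 CPM in shPTBP1. The shPTBP1 values lay within the shSCR range, and the log2 fold change was -0.24 with an SE of 0.28. For the scaffold LCP2 (chr5:170246233-170297815, minus strand), shSCR lay between 13.4 and 19.1 CPM and shPTBP1 between 13.5 and 31.6 CPM, a log2 fold change of 0.36 with an SE of 0.27. The highest LCP2 value belonged to shPTBP1 replicate 1, and without it the log2 fold change was 0.04.

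FYB1 (ENSG00000082074, chr5:39105252-39274528, minus strand) had 49.8, 57.3, 40.0 and 61.0 CPM in shSCR replicates 1 to 4. In shPTBP1 it had 61.4, 54.2, 64.5 and 50.6 CPM. The means were 52.0 ± 9.26 and 57.7 ± 6.40 CPM, a log2 fold change of 0.15 with an SE of 0.14. The total level of FYB1 therefore differed by less than the spread of its replicates. SKAP2 (chr7:26667068-26995239, minus strand), the partner of FYB1, lay between 76.7 and 116 CPM in shSCR and between 71.7 and 92.5 CPM in shPTBP1, with a log2 fold change of -0.10 and an SE of 0.13. It turned to 0.03 in the most distant of the fits that left out 1 library, namely that without shSCR replicate 2.

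Within FYB1, the 138-base exon was on average held by fewer transcripts in shPTBP1. Inclusion of an exon was taken as the counts of transcripts that hold it as a percentage of these and of the counts of transcripts that splice across it. The 138-base exon of FYB1 was included in 54.5, 74.5, 67.5 and 74.5% of spanning counts in shSCR replicates 1 to 4. In shPTBP1 it was included in 48.4, 53.7, 54.8 and 33.3%. The lowest shSCR library, replicate 1, lay just under the highest shPTBP1 library, replicate 3. The means were 67.8 ± 9.43% in shSCR and 47.6 ± 9.90% in shPTBP1 (SD, n = 4), a difference of -20.2 percentage points. Summed over libraries, 133 counts held the exon and 61 skipped it in shSCR, against 111 and 121 in shPTBP1. The difference lay between -24.6 and -15.5 points when any library was left out, and it was -9.89 points when all counts of the gene, including those that do not reach the exon, were the denominator. Each library rested on 40 to 62 spanning counts.

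**Figure D2:**
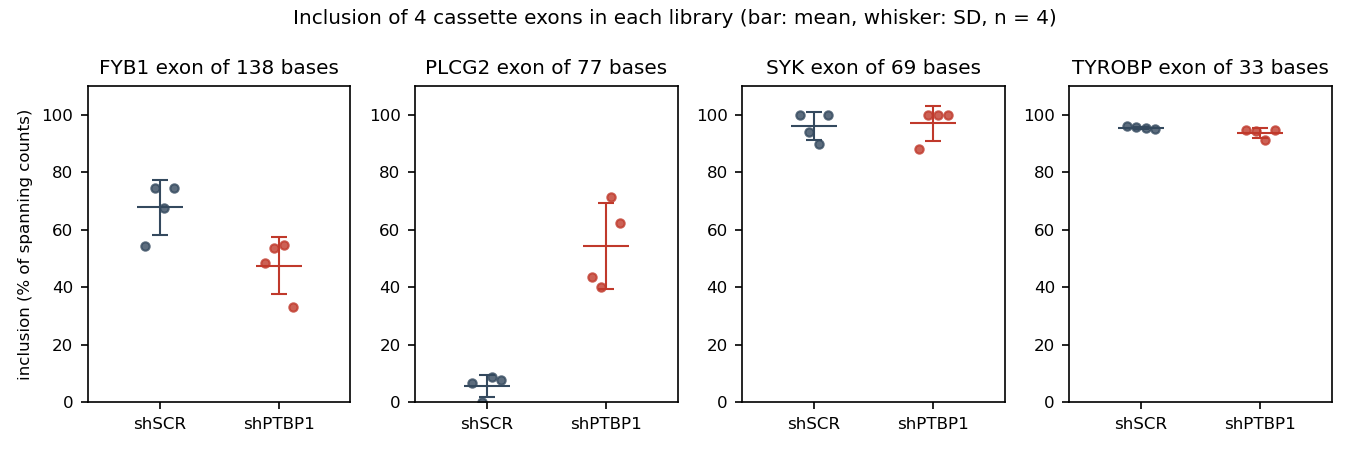
Inclusion (% of spanning counts, vertical axis) of a cassette exon in FYB1, PLCG2, SYK and TYROBP for the 4 shSCR and the 4 shPTBP1 libraries. Points are libraries, the long bar is the mean and the whisker the SD. FYB1 stands at a mean of 67.8% in shSCR and 47.6% in shPTBP1 with a narrow overlap, PLCG2 stands at 5.76% in shSCR and 54.4% in shPTBP1 without overlap, SYK stays near 100% and TYROBP above 91%.

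The isoforms of FYB1 show where these counts lie. FYB1-208 and FYB1-201 have the same annotated start and end and differ by the 138-base exon alone, so that they code for 829 and 783 amino acids. FYB1-201, which skips it, took 17.3, 10, 16.7 and 6.32% of the counts of FYB1 in shSCR replicates 1 to 4 and 23.7, 24.4, 21.4 and 30.4% in shPTBP1. Its share was higher in every shPTBP1 library than in any shSCR library, with means of 12.6 ± 5.31% and 25.0 ± 3.82%. FYB1-208, which holds the exon, had 21.8 ± 8.45% in shSCR and 14.3 ± 1.6% in shPTBP1. As a share of this pair, FYB1-208 made up 39.1, 75.7, 60.0 and 76.0% in shSCR and 36.1, 37.5, 43.2 and 29.4% in shPTBP1, on 23 to 37 counts per library. Replicate 1 of shSCR again lay among the shPTBP1 libraries, and the other three shSCR libraries lay above them. The second pair, FYB1-212 with the exon and FYB1-209 without it, differs in its ends too, and FYB1-212 made up 74.2 ± 3.91% of it in shSCR and 63.7 ± 16.5% in shPTBP1.

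FYB1-210, a short model at the 3′ end that GENCODE lists as a retained intron and that does not reach the exon, had 29.6 ± 1.86% of the counts in shSCR and 23.6 ± 1.36% in shPTBP1, and the groups did not overlap. FYB1-212 had 19.0 ± 3.62% and 16.7 ± 4.58%, FYB1-209 had 6.60 ± 1.59% and 9.43 ± 4.06%, and FYB1-214 had 5.98% and 5.89%, in shSCR and shPTBP1. The means of FYB1-210 and FYB1-208 were thus lower in shPTBP1 and that of FYB1-201 higher. In the isoform usage test of edgeR, 8 isoforms from 3 of the genes had enough counts and 1, FYB1-201, was called, where 1.12% of all 5464 isoforms tested were called. Groups did not overlap for 2 of the 8 (FYB1-201 and FYB1-210) and for 10.7% of all isoforms tested. Since the choice of genes used this contrast, nothing is read from these counts. The call of FYB1-201 was lost in 8 of 11 other fits, 6 of them among the 8 that left out 1 library (each shPTBP1 library, and shSCR replicates 2 and 4), although its share change stayed between 10.3 and 14.0 points there.

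**Figure D3:**
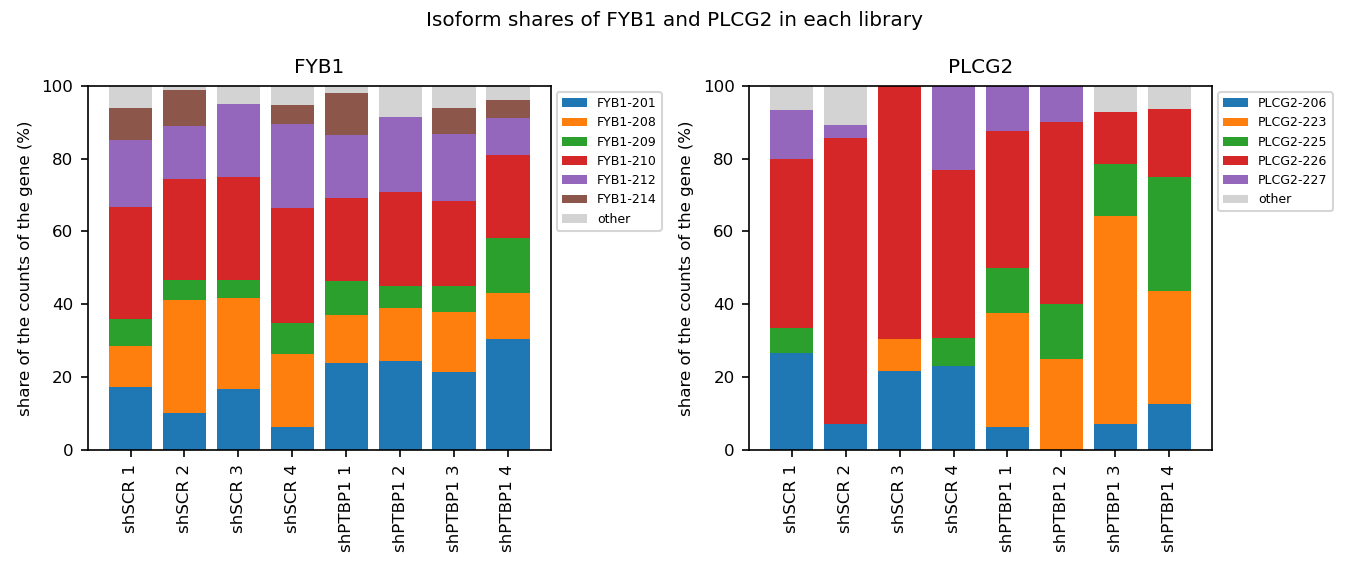
Share of the counts of the gene (%, vertical axis, stacked to 100) that each named isoform took in each library, for FYB1 on the left and PLCG2 on the right. FYB1-201 (bottom segment) is larger in all 4 shPTBP1 libraries than in any shSCR library, and PLCG2-223 and PLCG2-225, which hold the 77-base exon, are mostly found in shPTBP1.

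PLCG2 had the widest difference in exon inclusion of the 9 genes, on few counts. Its 77-base exon at position 81852050 was held by 1 of 15, 0 of 28, 2 of 23 and 1 of 13 spanning counts in shSCR replicates 1 to 4. In shPTBP1 it was held by 7 of 16, 8 of 20, 10 of 14 and 10 of 16. These are inclusions of 6.67, 0, 8.70 and 7.69% against 43.8, 40.0, 71.4 and 62.5%, and the groups did not overlap. The means were 5.76 ± 3.93% and 54.4 ± 15.0%, a difference of 48.7 percentage points that lay between 43.0 and 53.5 points when any library was left out. For shSCR replicate 2, a count of 0 of 28 allows a share of up to 10.7%.

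Among the isoforms of PLCG2, PLCG2-223 had a share of 36.2 ± 14.3% in shPTBP1 and 2.17 ± 4.35% in shSCR, where it was read in replicate 3 alone. PLCG2-225, the other model with the exon, had 18.3 ± 8.72% against 3.59 ± 4.17%. PLCG2-226, which skips it, had 30.1 ± 16.6% against 60.2 ± 16.4%, PLCG2-206 had 6.47 ± 5.12% against 19.7 ± 8.60%, and PLCG2-227 had 5.63% against 10%. PLCG2-223, PLCG2-225 and PLCG2-226 share 1 coding sequence of 1198 amino acids, or 3594 bases. They also begin at different annotated sites, at positions 81802229, 81811141 and 81822131 of chromosome 16, so the exon and the start site cannot be told apart in these counts. PLCG2-206, which also skips the exon, has a longer coding sequence of 3795 bases, so the isoforms of PLCG2 do not all code for the same protein. PLCG2 isoforms had too few counts for the isoform usage test.

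The 69-base exon of SYK was included in nearly all transcripts. It was included in 100, 93.9, 90 and 100% of the spanning counts in shSCR replicates 1 to 4 and in 88.0, 100, 100 and 100% in shPTBP1. The groups overlapped, and the means of 96.0 ± 4.91% and 97.0 ± 6.0% differed by 1.02 points. This difference ran from -0.98 to 4.02 points when libraries were left out. Of all SYK counts, 3 skipped the exon in shPTBP1, all in replicate 1, and 3 in shSCR. The long isoforms SYK-204 (79.1 ± 1.07% in shSCR and 76.3 ± 11.6% in shPTBP1) and SYK-201 (16.8% and 20.7%) code for 635 amino acids, and SYK-203, without the exon, codes for 612. With 10 to 33 counts per library, a shift of a few points was not detectable.

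TYROBP showed a small shift in a well-read gene. Its 33-base exon (chr19:35907730-35907762) was included in 95.9, 95.7, 95.4 and 95.2% of spanning counts in shSCR replicates 1 to 4 and in 94.6, 94.2, 91.2 and 94.7% in shPTBP1. All shPTBP1 libraries lay below all shSCR libraries, with means of 93.7 ± 1.66% and 95.6 ± 0.330%, a difference of -1.89 points that became -1.07 points without shPTBP1 replicate 3. Before this exon the intron held 74.0% pyrimidines, a share reached by 1.72% of all cassette exons, and after it 72.0%, reached by 0.734%. After the exons of FYB1, SYK and PLCG2 the intron held 47.0, 59.0 and 51.0%, where the median of all cassette exons was 52.0%. TYROBP-201, with 113 amino acids, took 84.3% of the counts in shSCR and 82.8% in shPTBP1, and TYROBP-202, with 101, took 3.71% and 5.85%. Their products differ by 12 amino acids, which is more than the 33-base exon alone codes for. TYROBP-207, listed as a target of nonsense-mediated decay, took 9.78% and 10.2%.

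In all, 15 annotated cassette exons lay in the 9 genes, and 13 of them, in 6 genes, had at least 10 spanning counts in every library. The BTK exons of 80 and 55 bases rest on the same transcripts and counts, as do the PLCG2 exons of 44 and 73 bases. For the same reason, the 9803 exons of all genes that reached this minimum hold 8954 distinct measurements. The PLCG2 exon was the only one of the 13 whose groups differed by at least 10 points without overlap, where 1.56% of the 9803 exons of all genes did so, and groups of the PLCG2 and TYROBP exons did not overlap, where 4.71% of all exons did not. The FYB1 exon, at -20.2 points, stood outside this rule by its overlap, and the TYROBP exon by its size. The 92-base exon of FCER1G had 94.7 ± 1.65% in shSCR and 94.3 ± 2.13% in shPTBP1. The exons of BTK with 80, 55 and 63 bases had means above 98% in both groups, and the 4 other exons of PLCG2 and the 340-base exon of FYB1 had means below 2% or above 98%. Main isoforms also kept similar shares in the other genes. In shSCR and shPTBP1, FCER1G-201 had 94.1% and 94.0%, BTK-201 had 93.3% and 92.3%, SKAP2-201 had 99.8% and 100%, and LCP2-201 had 87.1 ± 10.7% and 93.9 ± 9.49%. Among minor isoforms, LCP2-204 had 7.57% and 3.0%, and FCER1G-203 had 5.28% and 5.70%. LYN had 7 counts over all libraries, too few to describe LYN-202 and LYN-204, whose products differ by 21 amino acids.

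Other genes of the pathway were taken from a list of 116 genes written from general knowledge, of which 15 had no count and 62 were tested. The list was written with earlier results of these data known, so its share of calls is no independent evidence. By edgeR's quasi-likelihood test, 6 were lower and 3 higher in shPTBP1, 14.5% of those tested against 5.54% of all genes, and the median log2 fold change was -0.05. Calls fell in receptors (1 of 6 tested), inhibitory receptors (1 of 6), adaptors (1 of 12), phosphatases and other proteins that limit the signal (2 of 8) and downstream effectors (4 of 23), and none in the 6 Src-family kinases and their regulators tested or the 1 Tec kinase tested.

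GRB2, the adaptor that links tyrosine kinases to Ras through SOS, had the largest log2 fold change of the 62 genes of the list that were tested. It had 285, 485, 311 and 409 CPM in shSCR replicates 1 to 4 and 135, 119, 174 and 179 CPM in shPTBP1. The groups lay far apart, with a log2 fold change of -1.29, an SE of 0.17 and an edgeR adjusted p of 0.000597. RASGRP2, an exchange factor that activates Rap1 and through it integrins, had 55.3, 54.8, 52.7 and 50 CPM in shSCR and 69.0, 79.9, 79.0 and 92.2 CPM in shPTBP1. It rose by 0.59 on the log2 scale, with an SE of 0.11 and an edgeR adjusted p of 0.00760. Both were called when any library was left out, with an adjusted p of at most 0.00392 for GRB2 and 0.0295 for RASGRP2.

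The other seven calls were smaller, and each was lost when some library was left out. ITGB2, the beta chain of the leukocyte integrins, fell from 163 to 98.5 CPM (log2 fold change -0.73, edgeR adjusted p 0.0193), and lost its call without shPTBP1 replicate 2, 3 or 4 or shSCR replicate 2 or 4 (adjusted p up to 0.0758). TLN1, the talin that opens integrins, fell from 67.3 to 45.5 CPM (-0.57, edgeR adjusted p 0.0189), and lost its call without shPTBP1 replicate 3 or shSCR replicate 4 (up to an adjusted p of 0.0626). CD300A, an inhibitory receptor, fell from 104 to 67.6 CPM (-0.62, edgeR adjusted p 0.0198), and lost its call without shPTBP1 replicate 2 or shSCR replicate 3 (up to an adjusted p of 0.0543).

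DOK1, a docking protein that dampens tyrosine kinase signals, fell from 61.3 to 41.4 CPM (log2 fold change -0.57, edgeR adjusted p 0.0378), and its call was lost whichever of the 8 libraries was left out (adjusted p up to 0.0891) and with DESeq2. CARD9, which carries the signal of SYK to NF-kappaB, fell from 59.9 to 43.8 CPM (-0.45, edgeR adjusted p 0.0451), and kept its call only without shSCR replicate 3 among those fits (adjusted p up to 0.134). PTPN6, the phosphatase SHP-1, rose from 184 to 227 CPM (0.30, edgeR adjusted p 0.0283), and kept its call only without shPTBP1 replicate 4 or shSCR replicate 4 (adjusted p up to 0.0938). VAV3, a guanine nucleotide exchange factor, rose from 22 to 33.4 CPM (0.60, edgeR adjusted p 0.0449), and kept its call only without shPTBP1 replicate 1 or shSCR replicate 2 (adjusted p up to 0.147). DESeq2 also lost CARD9 and VAV3, limma-trend lost PTPN6 and VAV3, and a fit with no filter on low counts lost CARD9 (adjusted p 0.0517).

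Partners that were read deeply and not called include the TYROBP-coupled receptor TREM2, at 587 CPM in shSCR and 557 CPM in shPTBP1, and the adaptor LAT2, at 298 and 320 CPM. The Tec-family kinase TEC had 19.8 and 25.0 CPM. Among genes of the list with too few counts for the test, BLNK had 22 counts in shSCR and 2 in shPTBP1. SH3BP2 went the other way, with 0 in shSCR and 9 in shPTBP1.

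**Figure D4:**
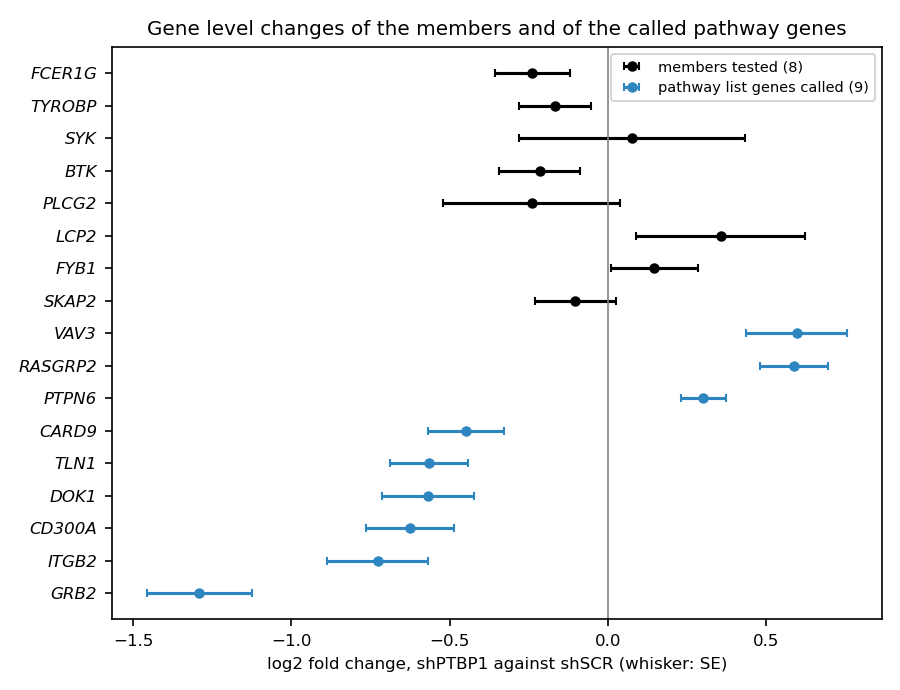
Log2 fold change of shPTBP1 against shSCR (horizontal axis; the whisker is the SE of the edgeR fit) for the 8 genes tested (black) and the 9 pathway list genes called (blue). The black points lie between -0.24 and 0.36, and the blue points lie between -1.29 for GRB2 and 0.60 for VAV3.

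As a description over the 8 libraries, the genes whose level followed that of FYB1 most closely among 7589 compared were C22orf39 (Pearson r 0.95), CHD3 (0.94), KBTBD4 (0.94), RCC2 (0.92) and TRMT13 (0.91). The share of FYB1-201 was followed most closely, among 5460 isoforms of other genes, by BANF1-202 (r -0.98), MS4A3-202 (-0.96), MRPL15-201 (-0.95), COX17-203 (0.95) and STXBP2-202 (0.95). All points share their libraries and the difference between the groups.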

How the data were processed

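The cDNA from 8 MOLM-13 libraries was sequenced by nanopore, and the authors mapped reads to hg38 with minimap2, filtered by mapping quality and ran StringTie. Versions and annotation are not given in the sources used here. The authors deposited whole-number counts per transcript, not normalized. The authors' other table, labelled TPM, holds CPM (counts per 1000000 of the library total) without length correction, which was checked against the counts. Every column matched a sample label.

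Transcripts were joined to GENCODE version 44 by identifier (252562 of 254070), and counts were summed per gene. A read that ends early can be counted for a transcript it only partly covers. Genes were tested with edgeR 4.0.16 (TMM, filterByExpr with minimum count 10, quasi-likelihood, group as the only term, Benjamini-Hochberg over 7597 genes, adjusted p under 0.05). Isoform usage was tested with diffSpliceDGE at an adjusted p under 0.05 and a share change of at least 0.1. Cassette exons needed 10 spanning counts in every library and were described by size (at least 10 percentage points) and overlap. Level per kb divides each transcript's CPM by its annotated length. Normalized CPM used TMM library sizes. The limit given for a 0 (3 counts of the total) reflects counting error alone.

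The members and lists were chosen with earlier results of these data known. Named genes are the 9 members, their isoforms with a mean share of at least 5% in either group, their measured cassette exons, PTBP1, called genes of the pathway list, and the 5 most similar genes and isoforms; uncalled pathway genes, SYK-203, ORAI1 and single marker genes were named after their values were seen. Alternatives were DESeq2 1.42.0, its size factors, other count filters, limma 3.58.1, a replicate block, other share limits and denominators, and leaving out each library. Same-numbered libraries did not deviate together (correlations -0.0328 to 0.00889), so numbers were not treated as pairs. Scripts were tested on simulated data. R 4.3.3, Python 3.11.15, pandas 2.3.3, numpy 2.4.6, pysam 0.24.0 and matplotlib 3.10.9 were used.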

Additional observations from a re-analysis of the deposited data

Results flagged for a closer look

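In 16 of 86 sets of 4 libraries, 1 library stood apart from the other three by Dixon's test, which chance does in about 1 of 20 sets. Most of these sets hold 3 libraries at 0 or 100%, where 1 or a few counts make the difference, and the sets share counts.

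In shPTBP1, replicate 1 stood apart for the share of LCP2-204 (12.0%, others 0) and for the SYK exon of 69 bases (88.0%, others 100%). Replicate 2 stood apart for the BTK exon of 63 bases (96.1%, others 98.8 to 98.9%). Replicate 3 stood apart for the TYROBP exon of 33 bases (91.2%, others 94.2 to 94.7%) and the PLCG2 exon of 87 bases (7.14%, others 0). Replicate 4 stood apart for the share of PLCG2-225 (31.2%, others 12.5 to 15.0%) and for a second PLCG2 exon of 77 bases, at position 81870478 (6.25%, others 0).

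In shSCR, replicate 2 stood apart for the BTK exon of 63 bases (97.5%, others 100%), the PLCG2 exons of 44 and 73 bases (92.9% each, others 100%) and the PLCG2 exon of 87 bases (3.57%, others 0). Replicate 3 stood apart for the share of PLCG2-223 (8.70%, others 0). Replicate 4 stood apart for the share of SKAP2-201 (99.3%, others 100%), the BTK exons of 80 and 55 bases (97.0% each, others 100%) and the FYB1 exon of 340 bases (4.08%, others 0).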

How the results depend on the processing

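No called result changed direction under the alternatives run, and the uncalled log2 fold changes of SYK and SKAP2 crossed 0 when some libraries were left out. Over all genes, 242 were lower and 179 higher. With the replicate number as a block these were 186 and 137, with 5 pathway genes lower and 2 higher, 50 isoforms called, and the calls of FYB1-201, CARD9 and VAV3 lost; the numbers do not pair the libraries. Leaving out 1 library gave 107 to 190 lower and 77 to 168 higher genes, with the fewest without shPTBP1 replicate 3, and 2 to 5 pathway genes lower and 1 to 3 higher. The number of isoforms called, 61, became 39 to 55 without 1 library, 154 with limma's diffSplice and 28 at a minimum change of 0.2; which isoforms these fits share was not counted. limma-trend on log2(CPM + 1) called 1 pathway gene higher. The 153 cassette exons became 113 at 20 spanning counts and 174 to 198 without 1 library. The causes were not tested. Depth limits LYN, SYK, PLCG2 and LCP2 most: at 10 to 50 counts of SYK, PLCG2 and LCP2 per library, 1 count moves a share by 2 to 10 points.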
